A study of Mus musculus with 70 samples.

Results

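The comparison of lights-off with lights-on was made in the hippocampus of APP23 mice fed ad libitum. APP23 mice (TG) overexpress a mutant human APP in neurons, from the Thy1 promoter, and so model amyloid deposition that overexpression drives. All libraries whose names mark TG, ad libitum feeding (ALF) and Zeitgeber time (ZT) 0 or 12 were taken, which gave 12 of 70 libraries, 6 at ZT0 and 6 at ZT12, each from a different mouse. ZT0 is the hour at which the lights come on, at the end of the active phase of a mouse, and ZT12 the hour at which they go off, at the end of its rest phase. The mice were 10 to 13 months old when killed, and the ZT12 tissue was collected in the dark. Poly-A RNA of the hippocampus of 1 hemibrain per mouse was sequenced, so the replicates are separate animals. The other groups of the study were non-transgenic littermates (NTG) fed ad libitum and mice of both genotypes given food for 6 h of the night only (time-restricted feeding, TRF). They enter here for the spread between animals and for tests of whether a change differed between groups. All mice, controls included, were housed singly in a cycle of equal light and dark, and some had passed through constant darkness and shifted light cycles earlier.

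The circadian clock is a loop of transcription in nearly every cell. BMAL1 and CLOCK activate genes through E-boxes, the PER, CRY and CIART proteins hold them back, and REV-ERB alpha and beta (Nr1d1, Nr1d2) repress Bmal1. Time of day also reaches brain tissue through body temperature, feeding, sleep and the daily rise of glucocorticoid hormone, which in mice comes near the start of the night. A difference between 2 times of day in these mice therefore holds all of these influences, which cannot be told apart here, and in bulk tissue fewer cells of a type and less RNA per cell cannot be told apart either.

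If the smallest step between the deposited values of a library is taken as 1 read, the 12 libraries hold 29.6 to 43 M reads each. A check of low values did not recover whole reads in most libraries, so these totals are estimates. Thy1, whose promoter drives the transgene, ranged from 101986 to 171318 normalized counts in all TG animals and from 14727 to 29068 in all NTG animals, so no library of the 12 went against its genotype. Xist, the RNA of the inactive X chromosome, lay between 28915 and 40001 in 3 animals at each time and between 0 and 45.1 in the 3 others, so both sexes appear to be balanced over the 2 times, although the labels give no sex. Some libraries stood apart from the rest. The 19 choroid plexus markers had a mean log2 level of 10.2 to 10.7 in 10 libraries but 5.82 and 6.34 in TG_ALF_12_125 and TG_ALF_12_109. Their most abundant member, Ttr, was 558 and 1737 normalized counts there and 31513 to 158017 in the other 10. TG_ALF_0_5 and TG_ALF_0_16 had mean correlations of 0.9666 and 0.9645 with the other animals and lay far out on the first principal component (40.1 and 45.5, with the other 10 between −23.3 and 12.9). Results that rest on these 4 libraries are given with and without them. In TG_ALF_0_13 the ribosomal RNA precursor Rn45s made up 2.75% of normalized counts, against 0.059% to 0.438% in the rest of the 12. The defining markers of hippocampal neurons, astrocytes and oligodendrocytes were abundant in all 12, with mean log2 levels of 10.9 to 11.3 for CA1 pyramidal cells, 12.6 to 13 for astrocytes and 11.9 to 12.4 for oligodendrocytes.

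**Figure D1:**
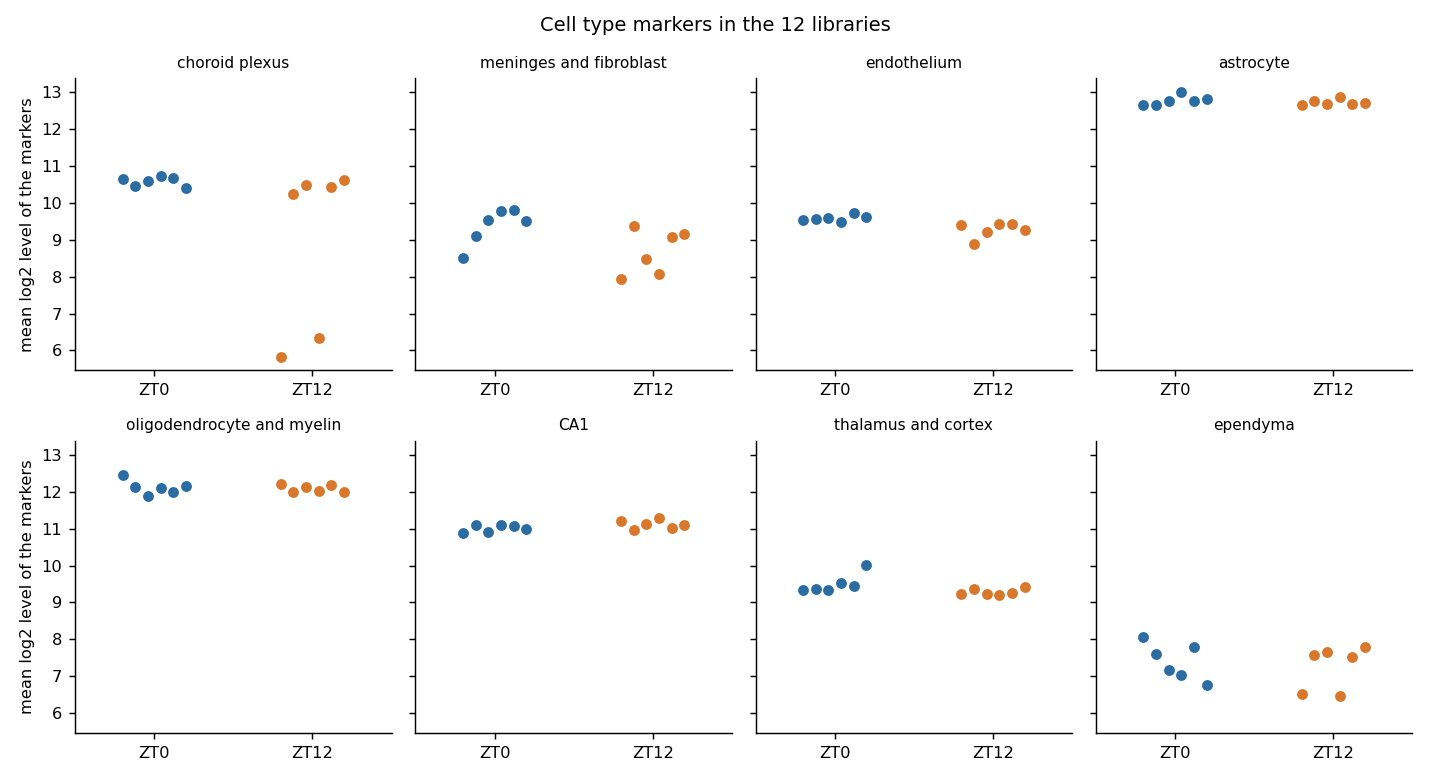
Mean log2 level of the marker genes of 8 cell types or neighbouring tissues (y axis) in each of the 6 ZT0 and 6 ZT12 libraries (points). Choroid plexus markers drop to 5.82 and 6.34 in TG_ALF_12_125 and TG_ALF_12_109, and meningeal markers range more widely than those of astrocytes, oligodendrocytes or CA1 neurons.

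Differences are log2 values at ZT12 minus log2 values at ZT0, each taken of the normalized count plus 1, with their standard error (SE) from limma fitted on 69 animals. A gene is called when its p, adjusted by Benjamini-Hochberg over 14260 genes, is under 0.05. Of these genes 316 were called (2.22%), with 1.01% of all genes higher at ZT12 and 172 genes lower (1.21%). At an unadjusted p under 0.05 there were 2587. The values of the 6 and 6 animals did not overlap for 173 genes that were higher (1.21%) and 152 that were lower (1.07%), of which 79 and 81 were also called. Most called changes were small. Of the 316, 182 were under 0.5 on the log2 scale and 23 were over 1, 12 higher and 11 lower, and the medians were 0.42 and −0.49. The median of all genes was 0.0010, with 50.2% above 0. No call changed its sign when any of the 12 libraries was left out, but 75 of the 316 kept their call in all 12 cases, 34 higher and 41 lower. The counts without TG_ALF_0_5 and TG_ALF_0_16 were 36 higher and 30 lower, without TG_ALF_12_125 and TG_ALF_12_109 they were 73 and 79.1% of the first count, and without all 4 they were 12 and 22.

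Ciart and Dbp, both of the clock lists, had the smallest adjusted p of all genes. Of 10 measured repressors 5 rose, where 1.01% of all genes did, with a median difference of 0.39 and all 10 values above 0. Of 6 activators 1 fell (median −0.26), and of 11 genes listed as outputs of the clock 4 rose and 1 fell (median 0.05). These and the other lists below were chosen with earlier results of these data known, so counts over their members are a description. Dbp, a transcription factor and direct clock target, ran from 729.7 to 1109.9 normalized counts at ZT0 (median 852) and from 2333 to 2981 at ZT12 (median 2476). The lowest ZT12 animal was thus above the highest ZT0 animal by more than the whole ZT0 range, and the difference was 1.53 ± 0.15, adjusted p = 6.03e-11 (limma). Ciart, a repressor of the BMAL1 and CLOCK pair, ran from 171 to 262 normalized counts at ZT0 (median 251) and from 539.8 to 874 at ZT12 (median 718), a difference of 1.64 ± 0.15, adjusted p = 3.06e-11, and the gap between its groups was again wider than the ZT0 range. Among the period genes Per3 ran from 1332 to 1648 normalized counts at ZT0 (median 1514) and from 2013 to 2842 at ZT12 (median 2351) and differed by 0.65 ± 0.12, adjusted p = 0.000943, with no overlap.

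Bmal1, the activator whose RNA is known to run opposite to that of the period genes, fell. Its values ran from 1123 to 1688 normalized counts at ZT0 (median 1466) and from 823 to 1004 at ZT12 (median 893), with each ZT12 animal below each ZT0 animal, and the difference was −0.63 ± 0.09, adjusted p = 2.04e-06. Nr1d2, which encodes REV-ERB beta, ran from 3089 to 4404 normalized counts at ZT0 (median 3386) and from 4887 to 5706 at ZT12 (median 5339.9) and rose by 0.60 ± 0.08 (adjusted p = 1.29e-06), again without overlap. Nfil3, a repressor that competes with DBP for the same sites, fell by 0.86 ± 0.17 (adjusted p = 0.00273), from a median of 384 to 217. Fmo2, a flavin monooxygenase, rose by 1.59 ± 0.29 (adjusted p = 0.000454) and Tspan4, a tetraspanin, by 0.64 ± 0.10 (adjusted p = 2.91e-05). Dbp, Ciart, Bmal1, Nr1d2, Nfil3, Fmo2 and Tspan4 kept their calls without any 1 library and without all 4 libraries that stood apart. Per3 kept its call without any 1 library and read 0.57 ± 0.15, adjusted p = 0.0924 without the 4.

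Members of the loop with smaller differences lost their calls in some cases. Per2 differed by 0.72 ± 0.17, adjusted p = 0.0124, and over the 12 cases with 1 library left out by 0.64 to 0.80. Its call ended in 1 case, without TG_ALF_0_16 (adjusted p = 0.0521). Nr1d1 (0.29 ± 0.08, adjusted p = 0.0293) and Usp2, a deubiquitinase (0.28 ± 0.08, adjusted p = 0.0389), lost their calls in 5 and 9 of the 12 cases, with adjusted p up to 0.118 and 0.0987. The count of repressors called was 3 without TG_ALF_0_16, 4 without either pair of libraries and 2 without all 4. Per1 (0.35 ± 0.14, adjusted p = 0.159), Cry1 (0.19 ± 0.10, adjusted p = 0.275), Cry2 (0.15 ± 0.09, adjusted p = 0.389) and the repressors Bhlhe40 (0.32 ± 0.11, adjusted p = 0.104) and Bhlhe41 (0.44 ± 0.13, adjusted p = 0.065) had positive values that missed the threshold. Clock itself (−0.28 ± 0.14, adjusted p = 0.284), Npas2 (−0.17 ± 0.14, adjusted p = 0.521) and the ROR receptor genes Rora (−0.45 ± 0.26, adjusted p = 0.346) and Rorb (−0.25 ± 0.20, adjusted p = 0.506), which activate Bmal1, also missed it. So did Tef (0.04 ± 0.08, adjusted p = 0.81) and Hlf (0.08 ± 0.11, adjusted p = 0.694), the relatives of Dbp, and the outputs Wee1 (0.05 ± 0.08, adjusted p = 0.736), Nampt (0.05 ± 0.08, adjusted p = 0.749), Leo1 (−0.15 ± 0.08, adjusted p = 0.274) and Marveld1 (−0.08 ± 0.15, adjusted p = 0.788).

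The promoters of 112 higher and 143 lower genes were found in the RefSeq table (GRCm38.p6, 250 bases before to 50 after a start), against 11045 of all listed genes. The E-box CACGTG, searched on both strands, stood in 19.6% of the promoters of the higher genes, 9.09% of those of the lower genes and 11.5% of all, which describes these windows and was not tested. Ciart held 3 E-boxes before its start, and the stretch with the most distant is shown with the E-box in capitals because Ciart had the largest difference of the repressors. It is on the minus strand at chr3:95882307-95882376, upstream of the start.
Ciart: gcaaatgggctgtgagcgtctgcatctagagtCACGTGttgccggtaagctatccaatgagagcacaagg
Per1, which missed the threshold, also held an E-box in its window, and none was found in that of Dbp.

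**Figure D2:**
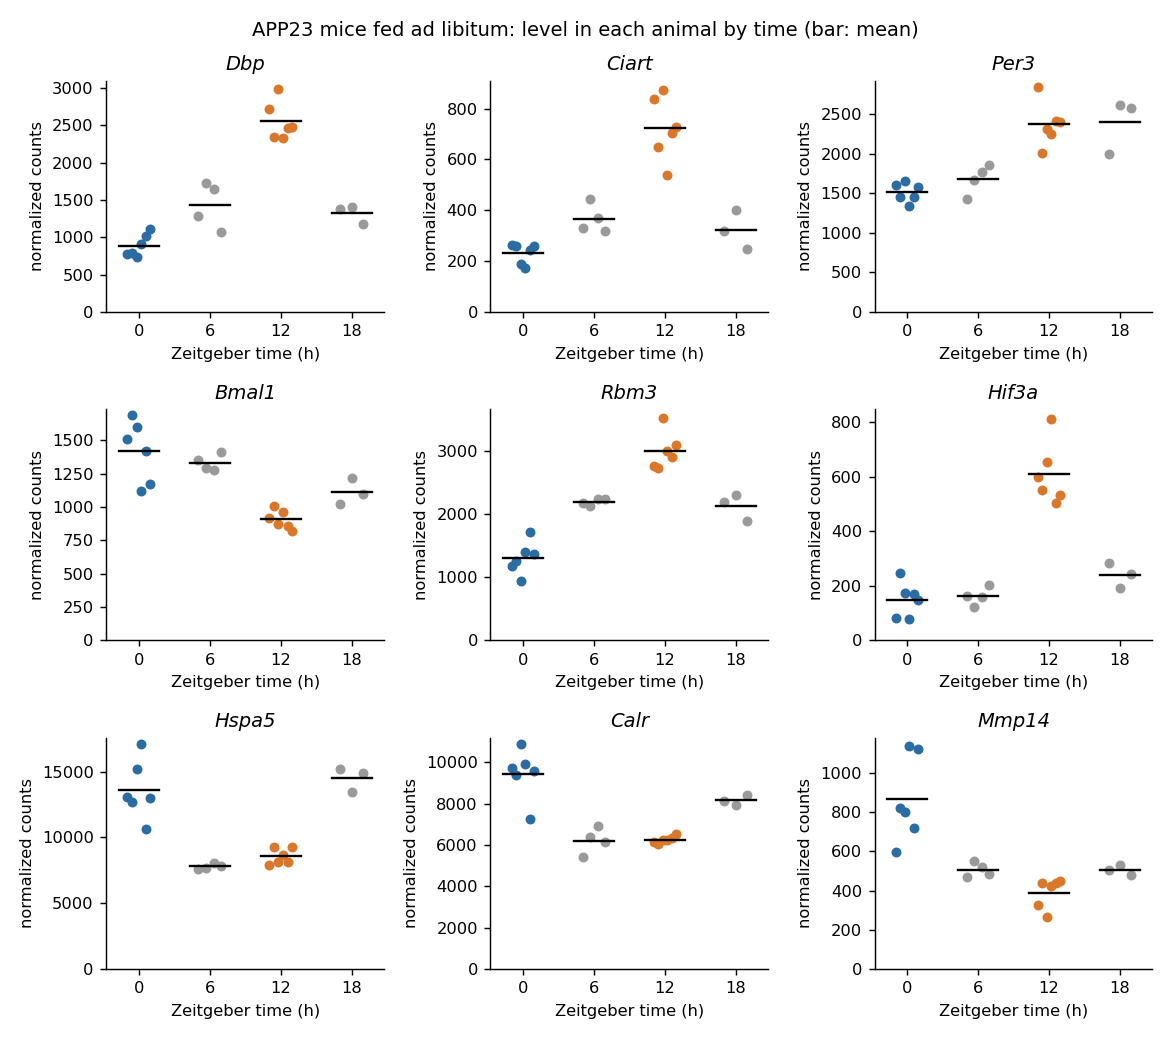
Normalized counts (y axis, from 0) of 9 genes in each APP23 mouse fed ad libitum, at ZT0 (blue, n = 6), ZT6 (grey, n = 4), ZT12 (orange, n = 6) and ZT18 (grey, n = 3), with the mean as a bar. The ZT0 and ZT12 points do not overlap in any of the 9 genes, and Dbp, Ciart, Rbm3 and Hif3a are highest at ZT12. Animals at ZT6 and ZT18 carry numbers of another series than those at ZT0 and ZT12.

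Both cold-inducible RNA-binding proteins rose. Rbm3 and Cirbp are induced by mild cooling, and in rodents their RNA is known to follow the daily course of body temperature inversely. Rbm3 ran from 931 to 1707 normalized counts at ZT0 (median 1309) and from 2729 to 3520.4 at ZT12 (median 2944), so that no ZT0 animal reached the lowest at ZT12, and the difference was 1.22 ± 0.13, adjusted p = 7.77e-10. Cirbp ran from 1084 to 2004 normalized counts at ZT0 (median 1456) and from 2552 to 2841 at ZT12 (median 2724), a difference of 0.91 ± 0.14, adjusted p = 3.28e-05, and its ZT12 animals lay in a narrow band above all ZT0 animals. Without all 4 libraries that stood apart the differences were 1.301 ± 0.16, adjusted p = 2.24e-07 for Rbm3 and 0.93 ± 0.18, adjusted p = 0.00487 for Cirbp. Body temperature is not in the files used here. RefSeq places an antisense gene, Rbm3os, over Rbm3 (chrX:8138975-8145880), and since no source states that counting used the strand, reads of the 2 cannot be told apart. The same holds where RefSeq places other genes over these, as Sphk2 over Dbp (chr7:45705100-45710203), C920021L13Rik over Ciart (chr3:95878500-95882257), Uts2 over Per3, Rabepk over Hspa5 (chr2:34772090-34776529) and Hdgfl2 over Plin4.

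Some genes that respond to glucocorticoids rose as well. Of 24 measured members 6 rose, where 1.01% of all genes did, and none fell. Their median was 0.36, with 17 values above 0. Hif3a, a member of the hypoxia-inducible factor family that glucocorticoids induce in brain, ran from 76.7 to 247 normalized counts at ZT0 (median 158) and from 505 to 809.7 at ZT12 (median 576) and had the largest difference of the genes named by size, 2.13 ± 0.33, adjusted p = 2.91e-05. Its ZT12 values all exceeded its ZT0 values, whose highest was in TG_ALF_0_127. Plin4, which coats lipid droplets, ran from 126.4 to 226 normalized counts at ZT0 (median 163) and from 417 to 897 at ZT12 (median 600.3) without overlap, a difference of 1.91 ± 0.42, adjusted p = 0.0083. Tsc22d3, an anti-inflammatory mediator, ran from 1296 to 3022 normalized counts at ZT0 (median 1635) and from 2974 to 3604 at ZT12 (median 3241). There 1 ZT0 animal, with 3022, lay just inside the ZT12 range, and the difference was 0.90 ± 0.16, adjusted p = 0.000551. Fkbp5, a co-chaperone that dampens the glucocorticoid receptor, ran from 1021 to 1513 normalized counts at ZT0 (median 1414) and from 1695 to 2384 at ZT12 (median 2017), with no overlap and a difference of 0.57 ± 0.12, adjusted p = 0.00356.

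The other called members were the transcription factor Klf9 (0.29 ± 0.07, adjusted p = 0.0128) and the phagocytic receptor Mertk (0.40 ± 0.10, adjusted p = 0.0176). The kinase gene Sgk1 (0.82 ± 0.31, adjusted p = 0.142) and the metallothioneins Mt1 (0.72 ± 0.27, adjusted p = 0.147) and Mt2 (0.79 ± 0.29, adjusted p = 0.132) had values of like size to some called members but missed the threshold, and the receptor genes Nr3c1 (−0.23 ± 0.10, adjusted p = 0.222) and Nr3c2 (−0.21 ± 0.12, adjusted p = 0.353) had negative values that missed it. None of 3 metallothioneins was called (median 0.72). Their median was 0.18 without TG_ALF_0_5 and TG_ALF_0_16, 0.81 without TG_ALF_12_125 and TG_ALF_12_109, and 0.28 without all 4. The 6 calls held without any 1 library, and 10 members were called without TG_ALF_0_127. Fewer held without several, with 4 called without TG_ALF_0_5 and TG_ALF_0_16, 3 without TG_ALF_12_125 and TG_ALF_12_109, and 1, Hif3a (1.84 ± 0.40, adjusted p = 0.0197), without all 4. Plin4 read 1.56 ± 0.53, adjusted p = 0.26 there. Corticosterone is not in the files used here.

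Among the chaperones of the endoplasmic reticulum, which fold proteins on the secretory path, calls were all lower at ZT12. Of 22 measured members 7 fell, where 1.21% of all genes did, and none rose. Their median was −0.19, with 17 values below 0. Hspa5, the Hsp70 of this compartment (BiP), ran from 10638 to 17086 normalized counts at ZT0 (median 13028) and from 7900.2 to 9289 at ZT12 (median 8411) and differed by −0.66 ± 0.12, adjusted p = 0.000319. The ZT0 animals varied more than the ZT12 animals, and the groups did not overlap. Calr, calreticulin, ran from 7249 to 10907 normalized counts at ZT0 (median 9649.6) and from 6063 to 6537 at ZT12 (median 6222), with the 6 ZT12 values within a narrow band below all ZT0 values and a difference of −0.59 ± 0.09, adjusted p = 2.49e-05. Hsp90b1, the Hsp90 of this compartment, ran from 14421 to 17783 normalized counts at ZT0 (median 15139) and from 9670 to 12894 at ZT12 (median 10605) and differed by −0.54 ± 0.09, adjusted p = 8.3e-05, again with no overlap. The disulfide isomerases Pdia6 (−0.47 ± 0.09, adjusted p = 0.00107), Pdia3 (−0.41 ± 0.08, adjusted p = 0.00115) and Pdia4 (−0.55 ± 0.15, adjusted p = 0.0381) and the co-chaperone Sdf2l1 (−0.80 ± 0.21, adjusted p = 0.0239) completed the count. Sdf2l1 lost its call in 5 of the 12 cases with 1 library left out (adjusted p up to 0.0719) and Pdia4 in 7 (up to 0.175), while the other 5 kept theirs.

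Members that missed the threshold included Dnajc3 (−0.39 ± 0.12, adjusted p = 0.0606), Hyou1 (−0.29 ± 0.13, adjusted p = 0.207) and Canx, calnexin (−0.24 ± 0.10, adjusted p = 0.193). Without both pairs of libraries that stood apart Calr read −0.55 ± 0.11, adjusted p = 0.00852, Hsp90b1 −0.45 ± 0.11, adjusted p = 0.0472 and Hspa5 −0.56 ± 0.14, adjusted p = 0.0748, and 2 members were called. Of the separate list on the stress response of this compartment and on degradation, 1 of 18 genes fell, Xbp1, the transcription factor of that response (−0.29 ± 0.08, adjusted p = 0.044, called in 3 of the 12 cases with 1 library left out, with adjusted p up to 0.17). Atf4 (0.32 ± 0.18, adjusted p = 0.344) and Herpud1 (0.19 ± 0.07, adjusted p = 0.166) missed it with positive values.

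The endoplasmic reticulum stress element, the motif through which ATF6 and XBP1 are known to act, is CCAAT, then 9 bases of any kind, then CCACG. Searched on both strands it stood in 17 of 11045 promoters of listed genes (0.154%), in none of the 112 of higher genes and in 4 of the 143 of lower genes (2.8%), which are those of Hspa5, Hsp90b1, Calr and Pdia6. Hsp90b1 holds it once on each strand. No match was found for Pdia3, Pdia4 and Sdf2l1, which also fell. The stretches of 3 of the 4 genes with a match are given as examples, and that of Hspa5 is left out. They are from RefSeq (GRCm38.p6), read along the gene's strand with the match in capitals. Hsp90b1 lies at chr10:86705613-86705682 on the minus strand, Calr at chr8:84847050-84847119 on the minus strand with the match on the opposite strand, and Pdia6 at chr12:17266465-17266534 on the plus strand, each upstream of the start.
Hsp90b1: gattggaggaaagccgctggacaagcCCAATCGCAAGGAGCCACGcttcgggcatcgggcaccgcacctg
Calr: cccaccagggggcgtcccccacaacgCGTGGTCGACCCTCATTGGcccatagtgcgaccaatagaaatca
Pdia6: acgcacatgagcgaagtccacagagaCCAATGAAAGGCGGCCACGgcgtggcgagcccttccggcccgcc
A match is a description of the letters and not evidence of binding, and the difference between the shares was not tested.

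Among cytosolic heat shock proteins and co-chaperones 4 of 24 fell, where 1.21% of all genes did, and none rose. Their median was −0.21, with 21 values below 0. Stip1, which links Hsp70 to Hsp90, ran from 6469 to 8414 normalized counts at ZT0 (median 8047) and from 5376 to 6233 at ZT12 (median 5874) without overlap and differed by −0.42 ± 0.07, adjusted p = 0.000156. Hsph1, an Hsp110, differed by −0.34 ± 0.08, adjusted p = 0.0107, with 1 or more ZT0 animals inside the ZT12 range. Chordc1 (−0.36 ± 0.10, adjusted p = 0.0411) and Dnaja4 (−0.24 ± 0.07, adjusted p = 0.0414) were called with adjusted p that passed 0.05 in 9 of 12 cases each when 1 library was left out, up to 0.115 and 0.0968. The count was 2 without TG_ALF_0_124 or TG_ALF_0_127, and 2 without TG_ALF_12_125, TG_ALF_12_23, TG_ALF_12_109 or TG_ALF_12_117. The most inducible members, Hspa1a (0.04 ± 0.16, adjusted p = 0.926) and Hspa1b (−0.22 ± 0.14, adjusted p = 0.376), and Hspb1 (−0.76 ± 0.24, adjusted p = 0.0758) missed the threshold. Stip1 read −0.38 ± 0.09, adjusted p = 0.0383 without the 4 libraries that stood apart.

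Immediate early genes are switched on by activity in neurons. Of 31 measured 3 fell, where 1.21% of all genes did, and none rose. Their median was −0.25, with 26 values below 0. Npas4, a transcription factor induced by calcium entry, ran from 320.8 to 648 normalized counts at ZT0 (median 481) and from 141 to 239 at ZT12 (median 210.8) without overlap and differed by −1.17 ± 0.28, adjusted p = 0.0141. Fosb ran from 166 to 558 normalized counts at ZT0 (median 366) and from 152 to 205 at ZT12 (median 187). Its lowest ZT0 animal lay among the ZT12 animals, and the difference was −0.995 ± 0.23, adjusted p = 0.0141. Nptx2, a secreted pentraxin of excitatory synapses, differed by −0.56 ± 0.15, adjusted p = 0.0353 and lost its call in 8 of the 12 cases with 1 library left out (adjusted p up to 0.129). Fos (−1.03 ± 0.45, adjusted p = 0.212), Egr2 (−1.86 ± 0.62, adjusted p = 0.0923), Egr1 (−0.57 ± 0.24, adjusted p = 0.203) and Arc (−0.29 ± 0.39, adjusted p = 0.711) varied widely and missed the threshold. The count was 5 without TG_ALF_0_234, 1 without TG_ALF_12_125 and TG_ALF_12_109, and 0 without TG_ALF_0_5 and TG_ALF_0_16, where Npas4 read −1.13 ± 0.31, adjusted p = 0.0839 and Fosb −1.004 ± 0.27, adjusted p = 0.0646.

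Several genes of vessels, matrix and meninges fell as well. Mmp14, a membrane-bound matrix protease, ran from 597 to 1136 normalized counts at ZT0 (median 812) and from 266 to 448 at ZT12 (median 429.9), all ZT12 animals below all ZT0 animals, and differed by −1.14 ± 0.16, adjusted p = 2.04e-06. Of 30 collagens and matrix genes 4 fell and none rose (median −0.26, 24 values below 0), where 1.21% of all genes fell. The 4 were Mmp14, the collagens Col3a1 (−1.56 ± 0.38, adjusted p = 0.0162) and Col1a1 (−1.14 ± 0.28, adjusted p = 0.0184) and Hspg2, perlecan (−1.05 ± 0.26, adjusted p = 0.0168). The count was 1 without TG_ALF_0_16 and 2 without TG_ALF_12_23, and only Mmp14 stayed called in each case where both ZT0, both ZT12 or all 4 of the libraries that stood apart were left out. Meningeal markers had 2 of 14 called, Col1a1 and Slc6a13 (−1.22 ± 0.31, adjusted p = 0.0199), and a median of −0.73. This count was 0 without TG_ALF_0_16 or TG_ALF_12_23, 1 without TG_ALF_0_13 or TG_ALF_0_5 or TG_ALF_12_125, and 4 without TG_ALF_0_124. Slc6a13 lost its call in 4 of the 12 cases (adjusted p up to 0.0922). The mean log2 level of the 14 markers ran from 8.498 to 9.80 at ZT0 and from 7.94 to 9.38 at ZT12, so the groups overlapped. Whether the amount of meninges in the tissue has a part in the matrix values was not tested. Without the 4 libraries Mmp14 read −0.91 ± 0.18, adjusted p = 0.00794, with a median of −0.20 for the meningeal markers.

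Of 12 endothelial markers 2 fell (median −0.37), where 1.21% of all genes fell. Kdr, the main receptor for vascular endothelial growth factor, ran from 688 to 1126 normalized counts at ZT0 (median 896) and from 375 to 557 at ZT12 (median 490.0) without overlap and differed by −0.90 ± 0.20, adjusted p = 0.00785. Cldn5, the tight junction protein of brain vessels, ran from 1017 to 1523 normalized counts at ZT0 (median 1245) and from 353 to 829 at ZT12 (median 736) and differed by −0.91 ± 0.21, adjusted p = 0.0132, and without TG_ALF_12_19, its lowest, the adjusted p was 0.0502. Flt1 (−0.68 ± 0.23, adjusted p = 0.0937) and Cdh5 (−0.60 ± 0.20, adjusted p = 0.096) missed the threshold. The count was 4 without TG_ALF_12_109, 1 without TG_ALF_12_19, and 0 without TG_ALF_0_5 and TG_ALF_0_16. The summed marker level was 9.49 to 9.73 at ZT0 and 8.89 to 9.42 at ZT12, as mean log2, with no overlap. All 19 choroid plexus markers had negative values with a median of −1.77, and none was called. The median was −0.17 without TG_ALF_12_125 and TG_ALF_12_109, with 4 values above 0. Other marker lists had 0 or 1 gene called, among them Sox9 of astrocytes (−0.44 ± 0.12, adjusted p = 0.0422) and Cx3cr1 of microglia (−0.36 ± 0.10, adjusted p = 0.0474), which lost their calls in 8 and 9 of 12 cases with 1 library left out (adjusted p up to 0.2 and 0.209), and Trpc6 of granule cells. The 14 astrocyte markers had a median of −0.08 with 5 values above 0. The 14 microglia markers had a median of 0.02 with 7 above 0.

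**Figure D3:**
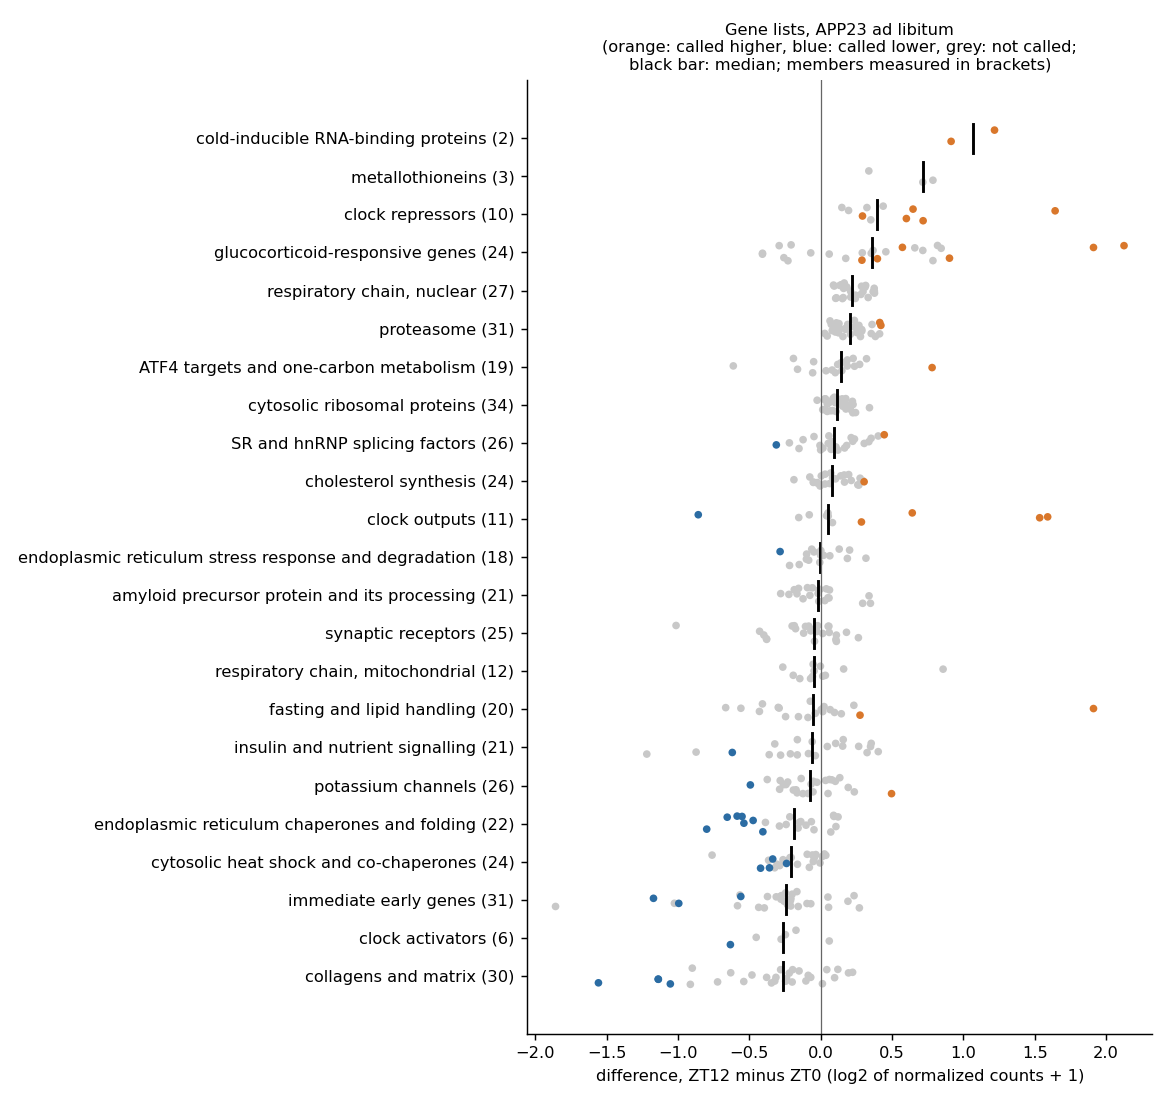
Difference between ZT12 and ZT0 (x axis, log2) for the measured members (points) of 23 gene lists, ordered by their median (black bar), with called genes in orange (higher) or blue (lower). Higher calls are most numerous among glucocorticoid-responsive genes (6), clock repressors (5) and clock outputs (4), and lower calls among endoplasmic reticulum chaperones (7), heat shock proteins (4) and matrix genes (4). Over all genes 1.01% were called higher and 1.21% lower. The lists were chosen with earlier results of these data known.

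In 3 lists of large complexes nearly all members had small positive values, and 2 genes were called, where 1.01% of all genes were called higher. Of 27 nuclear genes of the respiratory chain all 27 had positive values (median 0.22) and none was called. Of 31 proteasome genes all 31 were positive (median 0.21), and Psma7 (0.41 ± 0.10, adjusted p = 0.0158) and Psmb2 (0.42 ± 0.12, adjusted p = 0.0459) were called, but neither without TG_ALF_0_5 or TG_ALF_0_16 or TG_ALF_12_23. Of 34 cytosolic ribosomal protein genes 33 were positive (median 0.11) and none was called. These values moved with 2 libraries. Without TG_ALF_0_5 and TG_ALF_0_16 the respiratory median was 0.08 with 20 of 27 positive, that of the proteasome 0.14 and that of ribosomal proteins 0.08. Mitochondrially encoded genes of the chain, 12 measured, had a median of −0.05 and no call. No gene of APP processing was called among 21 (median −0.02), and App differed by 0.05 ± 0.08, adjusted p = 0.766. Whether the App counts include reads of the human transgene cannot be told here. Neither did any of 25 synaptic receptor genes pass, where Grin2b had −1.01 ± 0.43, adjusted p = 0.201.

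The remaining lists held few calls, where 1.01% of all genes were called higher and 1.21% lower. In cholesterol synthesis Acat2 rose (0.30 ± 0.08, adjusted p = 0.0307) as 1 of 24, in ATF4 targets and one-carbon metabolism Mthfd1l as 1 of 19, in fasting and lipid handling Plin4 and the ketone body enzyme Bdh1 (0.27 ± 0.07, adjusted p = 0.0294) as 2 of 20. Of 26 splicing factors Hnrnpc fell (−0.31 ± 0.07, adjusted p = 0.00628) and Hnrnpdl rose (0.44 ± 0.11, adjusted p = 0.0202). Of 26 potassium channels Kcnj10, the inward rectifier of astrocytes, fell (−0.49 ± 0.13, adjusted p = 0.0264) and Kcnn2 rose (0.50 ± 0.11, adjusted p = 0.00871), and in insulin and nutrient signalling Sesn3 fell as 1 of 21 (−0.62 ± 0.18, adjusted p = 0.0492). Of these, Hnrnpc, Mthfd1l and Plin4 kept their call without any 1 library. Kcnn2 lost it without TG_ALF_0_16 (adjusted p = 0.057), and Acat2, Bdh1, Hnrnpdl, Kcnj10 and Sesn3 lost it in 5 to 8 of the 12 cases, with adjusted p up to 0.177.

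Most of the called genes, 262 of 316, were in none of the lists. By size the naming rule brought up several of them, and also Mthfd1l of the ATF4 list. It took only called genes without overlap and with a mean of at least 200 normalized counts, so some larger differences given above are outside it. Xdh, xanthine dehydrogenase of purine breakdown, ran from 185 to 312.7 normalized counts at ZT0 (median 249) and from 349 to 596 at ZT12 (median 546) and differed by 1.07 ± 0.22, adjusted p = 0.00411, with no overlap. Mthfd1l, an enzyme of mitochondrial folate metabolism, ran from 312.9 to 486 normalized counts at ZT0 (median 444) and from 677 to 775 at ZT12 (median 731). Its lowest animal at ZT0, TG_ALF_0_13, lay well under the others, and the difference was 0.78 ± 0.10, adjusted p = 9.19e-07. Pla2g4e, a cytosolic phospholipase (0.77 ± 0.18, adjusted p = 0.0111), Tfr2, a transferrin receptor (0.74 ± 0.15, adjusted p = 0.00326), and Klhl40, a kelch protein (0.71 ± 0.18, adjusted p = 0.0224), were the others of the 12 that rose most under this rule. Klhl40 lost its call in 4 of the 12 cases with 1 library left out (adjusted p up to 0.074), whereas Xdh, Mthfd1l, Pla2g4e and Tfr2 did not.

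Among the 12 that fell most under the same naming rule, Ccdc190 ran from 576 to 774 normalized counts at ZT0 (median 674) and from 322.5 to 468 at ZT12 (median 397) without overlap and differed by −0.80 ± 0.13, adjusted p = 5.11e-05. Kank2, a scaffold protein of cell adhesions, ran from 481 to 899.5 normalized counts at ZT0 (median 709) and from 337 to 458 at ZT12 (median 376) and differed by −0.79 ± 0.15, adjusted p = 0.000961. Adamts2, which trims procollagen (−0.76 ± 0.17, adjusted p = 0.00799), Rflnb, a filamin partner (−0.74 ± 0.15, adjusted p = 0.00421), Dock5, an activator of Rac (−0.69 ± 0.19, adjusted p = 0.0322), and the netrin receptor gene Unc5b (−0.69 ± 0.16, adjusted p = 0.0155) followed. Dock5 lost its call in 7 and Unc5b in 2 cases with 1 library left out (adjusted p up to 0.111 and 0.0657). Trpc6, a cation channel marking granule cells, ran from 627 to 906 normalized counts at ZT0 (median 853) and from 438 to 613 at ZT12 (median 527), with no overlap and a difference of −0.65 ± 0.13, adjusted p = 0.00253, while the 9 other granule cell markers were not called. Across all 30 other settings of the analysis 20 genes were called each time. Those higher included Dbp, Nr1d2, Rbm3, Cirbp, Mthfd1l and Armcx5 (0.68 ± 0.12, adjusted p = 0.000483). The 13 lower were Bmal1, Hsp90b1, Calr, Stip1, Hnrnpc, Mmp14, Trpc6, Ccdc190, the transcriptional co-activator Wwtr1 (−0.54 ± 0.10, adjusted p = 0.00102), the scaffold gene Sash1 (−0.59 ± 0.10, adjusted p = 7.03e-05), the cargo lectin Lman2l (−0.44 ± 0.09, adjusted p = 0.00125), Parvb (−0.59 ± 0.09, adjusted p = 3.34e-05) and Glt8d2 (−0.68 ± 0.10, adjusted p = 2.53e-06). A minimum mean of 500 normalized counts in 1 of these settings left out genes of smaller mean count, such as Ciart and Hif3a, by construction.

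Animals killed at ZT6 (n = 4) and ZT18 (n = 3) place the 2 times within the day, as a description only. Of the genes called higher, 113 had their highest mean at ZT12, 28 at ZT6 and 3 at ZT18. Of the 172 called lower, 137 had their lowest mean at ZT12, 25 at ZT6 and 10 at ZT18. Both sets were selected by the difference between ZT12 and ZT0 in these same animals. An extreme at ZT0 was thus not possible and one at ZT12 was favoured, so the counts do not show where in the day the genes peak or dip. Dbp had means of 889 ± 152, 1434 ± 308.1, 2556 ± 251 and 1321 ± 123 at ZT0, ZT6, ZT12 and ZT18 (SD). Per3 was instead as high at ZT18 (2394 ± 349) as at ZT12 (2369.9 ± 272). Of the endoplasmic reticulum chaperones Hspa5 was already low at ZT6, with 7787 ± 216 there and 8564 ± 602 at ZT12 against 14516 ± 940.3 at ZT18 and 13616 ± 2238 at ZT0. Hsp90b1 had 12012 ± 837 at ZT6, between its means at ZT0 (15784 ± 1381) and ZT12 (10876 ± 1122). Hif3a was higher at ZT12 (609 ± 111) than at ZT6 (161 ± 33.0) or ZT18 (239.9 ± 47.3). Npas4 was lower at ZT12 (201.9 ± 33.3) and ZT18 (190.2 ± 60.4) than at ZT0 (465 ± 123.9) and ZT6 (470.4 ± 57.9).

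**Figure D4:**
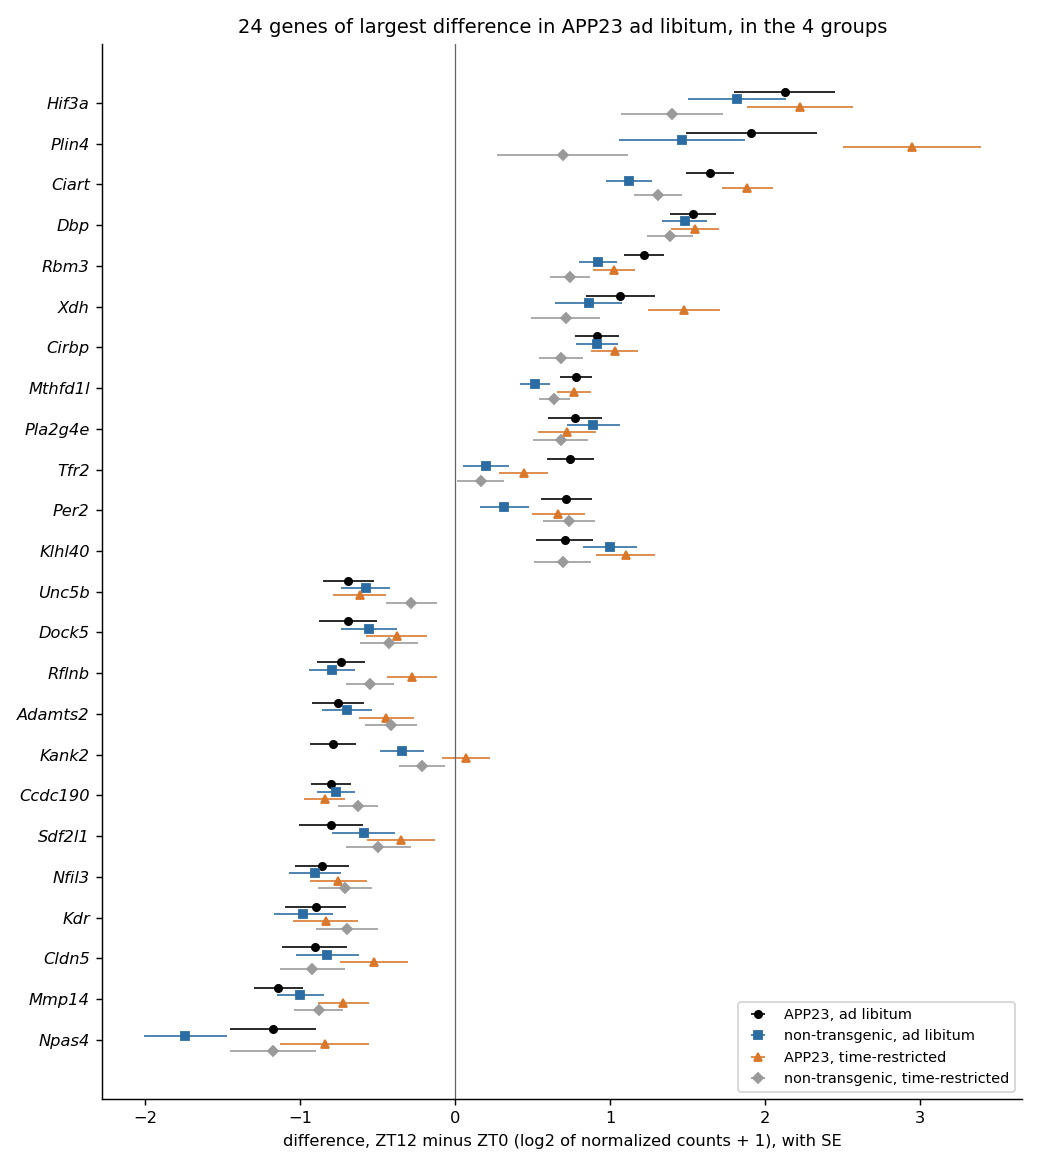
Difference between ZT12 and ZT0 (x axis, log2, bars are SE) for the 12 genes that rose and 12 that fell most in APP23 mice fed ad libitum, in each of the 4 groups of genotype and feeding. They were taken from called, non-overlapping genes with a mean of at least 200 normalized counts. The 4 estimates lie on the same side of 0 for all genes but Kank2, whose value in APP23 mice on restricted feeding is 0.07.

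The last question is whether these differences between the 2 times belong to APP23 mice fed ad libitum. In the other groups the same contrast called 0.94% of genes higher and 176 genes lower (1.23%) in NTG mice on ALF, 1.48% higher and 295 lower (2.07%) in TG mice on TRF, and 34 higher (0.238%) and 51 lower (0.358%) in NTG mice on TRF. These groups have separate animals at both times. Of the genes higher here 97.2%, 100% and 98.6% had the same sign in NTG on ALF, TG on TRF and NTG on TRF, and of the 172 lower 94.8%, 97.1% and 93%. Of all genes, 51.4%, 50.3% and 51.6% were positive in these groups. Called in both were 48 higher (33.3% of those here, 35.8% of those there) and 74 lower genes (43% and 42%) for NTG on ALF. For TG on TRF it was 63 higher (43.8% and 29.9%) and 72 lower genes (41.9% and 24.4%), and for NTG on TRF 22 higher (15.3% and 64.7%) and 35 lower genes (20.3% and 68.6%). No gene was called in opposite directions. In all 4 groups 36 genes were called, 14 higher and 22 lower, among them Dbp, Ciart, Nr1d2, Rbm3, Cirbp, Hif3a, Bmal1, Hspa5, Calr, Hsp90b1, Pdia6, Pdia3, Stip1 and Mmp14.

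A test of the difference itself called no gene for TG on ALF against NTG on ALF (0%), against TG on TRF (0%) or against the mean of the other 3 groups (0%), by limma. At an unadjusted p under 0.05 there were 2.27%, 2.33% and 1.63% of genes, and voom weights or array weights also called 0. Each of these shares is below the 0.05 that this threshold passes on average when no gene differs. The median SE of the difference from NTG on ALF was 0.17, against 0.12 for the contrast within the group, which limits the size of difference that could be detected. The 132 genes called here and in no other group are therefore not shown to be particular to it, and 78.8% of them had the same sign in all 3 others. For Dbp the values were 1.48 ± 0.14 in non-transgenic mice fed ad libitum, 1.55 ± 0.16 in APP23 mice on restricted feeding and 1.39 ± 0.15 in non-transgenic mice on restricted feeding, and the difference from NTG on ALF was 0.05 (95% interval −0.36 to 0.47). For Ciart they were 1.12 ± 0.15 in non-transgenic mice fed ad libitum, 1.89 ± 0.16 in APP23 mice on restricted feeding and 1.31 ± 0.15 in non-transgenic mice on restricted feeding, with a difference from NTG on ALF of 0.52 (95% interval 0.09 to 0.95), an interval that leaves out 0 and is not adjusted for the number of genes. Its limma adjusted p was 1. Kank2 ranked first of all genes for a difference from TG on TRF, at −0.86 (95% interval −1.29 to −0.43), and its limma adjusted p was 1. Of the genes of smallest p against NTG on ALF, Gipr, a receptor for an incretin hormone, differed by 1.38 (95% interval 0.62 to 2.15) and was called higher here (0.96 ± 0.28, adjusted p = 0.0447), while Agpat2 differed by −1.47 (95% interval −2.25 to −0.69) and was not called here. Cdkn1a, a cell cycle inhibitor, differed from TG on TRF by −1.46 (95% interval −2.23 to −0.68). Tfr2 differed from the mean of the other 3 groups by 0.47 (95% interval 0.12 to 0.83) and Plin4 from TG on TRF by −1.03 (95% interval −2.26 to 0.19), with none of Gipr, Agpat2, Cdkn1a, Tfr2 and Plin4 passing adjustment (limma adjusted p = 1 for these 5).

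Some lists held more calls in another group. The share of all genes called also differed, at 1.01% higher and 1.21% lower here and 0.94% and 1.23% in NTG on ALF. It was 1.48% and 2.07% in TG on TRF and 0.238% and 0.358% in NTG on TRF. Of the glucocorticoid-responsive genes 6 were called here, 4 in NTG on ALF, 16 in TG on TRF and 2 in NTG on TRF, with medians of 0.36, 0.16, 0.77 and 0.25. Of the immediate early genes 3 were called here, 12 in NTG on ALF, 2 in TG on TRF and 1 in NTG on TRF, with medians of −0.25, −0.55, −0.17 and −0.22. The meningeal markers, with a median of −0.73 here, had medians of 0.00, 0.04 and −0.05 in the same order of groups. Whether a list as a whole differed between groups was not tested.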

How the data were processed

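Each of 70 hippocampal libraries of the series is a column of 1 deposited table. Trimmomatic cleaned the reads on Galaxy, per the labels' protocols. HISAT2, featureCounts, DESeq2 and GRCm38 are named, per the submitters' processing notes. Versions, settings and annotation are not given in the sources used here. Each deposited value is a normalized signal for 1 gene in 1 library, which the authors appear to have made by dividing read counts by 1 factor per library, as the values of each library are whole multiples of 1 step within 0.01 of it. Taken as 1 read, the step gives 29.6 to 43 M reads in the 12 libraries (median 37.2 M over all). These totals are estimates, since a check of low values did not recover whole reads in most libraries, and for this reason no count test was used. All 14260 listed genes have a mean of at least 40.8, so no gene of low mean is listed.

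Tests used limma 3.58.1 in R 4.3.3 (moderated test with variance trend and robust variances, 2-sided) on log2(normalized count + 1), since the values were not treated as reads. A filter on a mean of 10 removed no gene. The model held 16 means of group and time over 69 animals, with library 232R, of NTG on TRF, averaged with 232 as 1 animal, an unsettled reading, and 53 residual degrees of freedom. The labels give the animals no shared replicate numbers, so nothing was paired. The script was tested on simulated data with known changes.

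The genes named are the 12 that rose and 12 that fell most among called, non-overlapping genes with a mean of at least 200 over the 12 animals, all members of the clock and cold-inducible lists, up to 4 members of smallest p of every other list, the 5 genes of smallest p for each test of a difference, Thy1, App and Xist, and, for likeness, 10 genes most correlated with Dbp. Other members (Klf9, Mertk, Pdia4 and uncalled ones such as Fos, Arc, Sgk1 and Hspa1a) were chosen after their values were seen, to complete a count or as well-known genes, and the 20 genes called under all settings were picked after their values were seen. Values of a few genes that this rule or these settings name are not reported here. The 38 lists (629 genes measured) and the members were chosen with earlier results of these data known. Of the listed genes 97.9% were found in RefSeq (GRCm38.p6). Alternatives changed the pseudocount, filter, scaling, weights, variance model, covariates, animals in the fit and, 1 at a time, the 12 libraries. Leaving out TG_ALF_12_125 and TG_ALF_12_109, alone or with TG_ALF_0_5 and TG_ALF_0_16, was chosen after seeing the data.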

Additional observations from a re-analysis of the deposited data

Results flagged for a closer look

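The genes given values in the text, 111 of them, and the 15 marker levels were examined at both times for 1 animal far from the other 5. Of these 252 groups 10 held one, where chance alone gives about 1 in 20. Among called genes, Mthfd1l was 312.9 normalized counts in TG_ALF_0_13 (nearest animal 422.6) and Fkbp5 was 1020.6 in TG_ALF_0_5 (nearest 1393). Tsc22d3 was 3022 in TG_ALF_0_127 (nearest 1722), Stip1 was 6469 in TG_ALF_0_234 (nearest 8028) and Pdia6 was 3818 in TG_ALF_12_19 (nearest 3447). These 5 genes kept their calls without any 1 library. Among genes not called, Sgk1 was 7337 in TG_ALF_0_127 (nearest 3482), Marveld1 was 472 in TG_ALF_12_115 (nearest 341), and in TG_ALF_12_109 Mt2 was 3382 (nearest 4665) and Nr3c2 was 5829.9 (nearest 4063). The mean log2 level of thalamus and cortex markers was 10.01 in TG_ALF_0_5 (nearest 9.54), and none of these markers was called.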

How the results depend on the processing

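Against 1.01% of genes higher and 172 genes lower, the counts were 36 and 30 without TG_ALF_0_5 and TG_ALF_0_16, 73 higher without TG_ALF_12_125 and TG_ALF_12_109 (lower 79.1% of the first count), 12 and 22 without all 4, and 55 and 84 in the 12 animals alone, where 10 residual degrees of freedom remain. Of the 12 and 22, 12 and 20 were among the genes called at first. Leaving out 1 library at a time gave 55 to 221 higher and 51 to 236 lower genes. Both lowest counts came without TG_ALF_0_16 and both highest without TG_ALF_0_127. Counts of higher genes also fell by more than 1.5 times without TG_ALF_0_13 (73) or TG_ALF_0_5 (70), or TG_ALF_12_125 (79), TG_ALF_12_23 (76) or TG_ALF_12_115 (94). Those of lower genes did so without TG_ALF_0_13 (58.7% of 172) or TG_ALF_0_5 (80 genes), or TG_ALF_12_125 (59.3% of 172) or TG_ALF_12_23 (67 genes). Each of these cases also has fewer animals, and the cause of the loss was not tested. Other pseudocounts, filters, scalings, weights, variance models and covariates kept both counts within 1.5 times. Equal library totals moved the share of higher genes from 45.6% to 51.9%. The tests of a difference between groups called 0 genes wherever they were run, and were not run in the 12 animals alone. Of 62 named genes called, none turned its direction under any of 30 settings, and 34 stayed called without any 1 library. No paired analysis was possible because the columns carry animal numbers that no 2 groups share. The number of animals, 6 a group, limits what can be detected, and whether depth also limits the named genes was not tested. The labels give neither sex nor extraction batch.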

Other observations

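Within each time, after removing the time means, the 10 genes most correlated with Dbp over the 12 animals had Pearson r of 0.81 to 0.92, led by Dkc1, Uvssa and Onecut2. None of the 10 was called between the times and none is in the clock lists. As the highest of 14260 values over 12 animals these are a description only.

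The other motifs searched in promoters (both strands) gave the shares below, which were not tested. The heat shock element GAANNTTC stood in 8.93% of higher, 7.69% of lower and 6.93% of all promoters, the D-box (TTATGTAA or TTACGTAA) in 0.893%, 0.699% and 0.914%, the core of the RORE, TAGGTCA, in 0.893%, 2.1% and 2.15%, and the cyclic AMP element TGACGTCA in 1.79%, 2.8% and 3.45%. The glucocorticoid element (AGAACA, 3 bases, TGTTC) stood in 0.0181% of all and in no promoter of called genes. Per3 held the D-box at 2 places. These windows are short, and absence from them says only that the letters are not there.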
